A study of Mus musculus with 12 samples.

Results

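Transcripts of 7 costimulatory receptors were followed in mouse follicular helper T (Tfh) cells that were wild type (WT) or carried a Pdcd1 knock-in allele on both chromosomes (KI). The members were the rows of the count and FPKM tables for Icos, Cd28, Tnfrsf4 (encoding OX40), Tnfrsf9 (4-1BB), Tnfrsf18 (GITR), Cd27 and Cd226 (DNAM-1), which is 7 of the 25793 genes counted. All 7 were present in both tables, and 6 passed the filter on low counts. Cd226 did not pass it.

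Each genotype had 6 libraries. All 12 came from CD4+ OT-II T cells, whose receptor recognises an ovalbumin peptide, on the C57BL/6 strain. In both groups the T cells had been transduced to express GFP and given to B6 recipients together with MD4 B cells that express dsRed and bind hen egg lysozyme. Recipients were immunized under the skin with HEL-OVA, a lysozyme-ovalbumin antigen, with LPS and alum. CXCR5hi GFP+ T cells were sorted from lymph nodes at day 5. WT cells were Pdcd1+/+ and the others Pdcd1KI/KI. The series asks how PD-1, the receptor that Pdcd1 encodes, controls the position and function of Tfh cells. The labels do not say what the knock-in changes in the gene, which vector carried GFP, or how old the animals were. The recipients kept their own lymphocytes. Each library was made from a small pool of sorted cells. Each title also holds a first number (1 or 2) and a second number (1 to 3), whose meaning is not stated. Libraries are named here by genotype and these numbers. Each combination of genotype and first number had 3 libraries.

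A T cell needs a signal from its antigen receptor and further signals from costimulatory receptors. CD28 and ICOS belong to the immunoglobulin superfamily and bind B7-family ligands on antigen-presenting cells. Both carry a short tyrosine motif in the cytoplasmic tail that recruits phosphoinositide 3-kinase (PI3K), and ICOS is required for Tfh cells to form and persist. OX40, 4-1BB, GITR and CD27 belong to the TNF receptor superfamily and signal through TRAF adaptors to NF-kappaB. CD226 binds nectin-family ligands and competes for them with the inhibitory receptor TIGIT.

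The 2 members whose level differed with the first title number, Icos and Cd28, are related genes, and their shared PI3K-binding motif is shown in the coding sequence. Each line gives 60 bases of coding sequence from the GENCODE vM1 transcripts, 5′ to 3′ on the coding strand, with the 4 codons of the motif in capitals.
Cd28: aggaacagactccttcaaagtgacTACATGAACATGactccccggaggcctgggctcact
Icos: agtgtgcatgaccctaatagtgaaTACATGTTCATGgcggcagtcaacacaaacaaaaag
The motif lies at codons 189 to 192 of 218 in Cd28 and at codons 181 to 184 of 223 in Icos. It was found by searching the codons for a tyrosine, a methionine, any residue and a methionine, and each coding sequence held it at 1 place.

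Some of the members are neighbouring genes. In NCBIM37, the assembly that the browser name mm9 in the submitters' processing notes stands for, Cd28 is at chr1:60773644-60830203 and Icos at chr1:61034771-61057164, both on the plus strand. Ctla4, which encodes an inhibitory relative of CD28, lies between them at chr1:60943844-60972676 and was the 1 protein-coding gene annotated there. Tnfrsf4 (chr4:155387952-155390721) and Tnfrsf18 (chr4:155400273-155403004) are 9.55 kb apart on the plus strand. Tnfrsf9 (chr4:150288671-150320211) is on the same chromosome but is no neighbour, at 5080061 bases from Tnfrsf18 with 87 protein-coding genes between. Cd27 (chr6:125182640-125187028, minus strand) overlaps Vamp1 on the other strand, and Tnfrsf18 overlaps an annotated antisense transcript. Whether the counting used strand is not given in the sources used here, so reads from these overlaps may not be separable.

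Libraries held between 717506 and 1801504 counts in genes (median 1411038). The fraction of reads assigned to genes ran from 46.1% to 60.2%. WT 1-3 stood apart, with the fewest counts, the lowest fraction in genes, 43.8% of reads aligned to more than 1 place (26.7% to 34.3% in the others) and the lowest Icos and Tnfrsf4 of the WT libraries. Without it 0 members were called between genotypes, and between first numbers Icos (0.73, adjusted p 0.0245) and Cd28 (0.55, adjusted p 0.0174) were called. Pdcd1, the gene of the knock-in, was measured at 166 to 523 CPM (counts per 1000000, scaled by library) in WT and at 21.5 to 130 CPM in KI, with no overlap between genotypes. Its log2 difference was -2.05 (SE 0.42), with an adjusted p of 0.231. With a replicate block by first number the difference was -2.24 (SE 0.22), with an adjusted p of 7.62e-06. All 8 T cell and Tfh genes of the identity list passed the filter, and their summed level ran from 3228 to 5228 CPM. Cxcr5, the receptor used in the sort, ranged from 340 to 801 CPM. Bcl6, the transcription factor that defines the Tfh lineage, was low at 1.27 to 17.4 CPM. Foxp3, the defining gene of regulatory T cells, was at 0 in 11 of 12 libraries. Among markers of other cell types Pax5, Itgax, Cd14 and Ncr1 were at 0 in all 12. Other markers of those cells had counts in all 12. These included Nkg7 (mean 203 CPM), Cd22 (123), Ikzf2 (77.6), Cd79b (32.5), Cd8b1 (21.2) and Csf1r (13.0), so such cells are not shown to be absent. In pooled cells, fewer cells that express a gene and less RNA per cell cannot be told apart. The labels do not name separate animals or cultures, so p-values measure the spread between these libraries, which may be technical.

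Cd27 was the most abundant of the 7 receptor transcripts, followed by Icos, Cd28, Tnfrsf18 and Tnfrsf4, while Tnfrsf9 and Cd226 were low. Levels of different genes were compared in FPKM, which scales by transcript length. Cd27 measured 367 ± 65.8 FPKM (SD, n = 12) and ranked first in 12 of 12 libraries, from 281 to 476 FPKM. Icos measured 132 ± 51.4 FPKM (SD, n = 12), with a median of 135 and a range of 64.2 to 229. Cd28 measured 115 ± 29.4 FPKM (SD, n = 12), with a median of 108 and a range of 83.9 to 179. These 2 receptors and Tnfrsf18 took ranks 2 to 5 in changing order from library to library. Tnfrsf18 measured 105 ± 43.5 FPKM (SD, n = 12), between 46.9 and 209. Tnfrsf4 measured 70.3 ± 25.9 FPKM (SD, n = 12), between 18.6 and 113. Both encode receptors that activated and regulatory T cells carry.

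Tnfrsf9, an activation-induced receptor, measured 4.07 ± 2.58 FPKM (SD, n = 12), between 0.82 and 11.1. Cd226 measured 0.61 ± 0.64 FPKM (SD, n = 12), and 4 of 12 libraries had 0 counts for it. Neighbours in this order were compared within libraries by two-sided exact sign-flip permutation tests on log2(FPKM + 0.1), adjusted over the 6 neighbouring pairs. Cd27 exceeded Icos in 12 of 12 libraries, by 1.56 on the log2 scale (exact permutation, adjusted p 0.00146). Icos exceeded Cd28 in 8 of 12 libraries by 0.13, and Cd28 exceeded Tnfrsf18 in 9 of 12 by 0.20 (exact permutation, adjusted p 0.262 for each). Over all 12 libraries the order of these 3 was therefore not resolved beyond the spread between libraries. In WT alone Cd28 exceeded Tnfrsf18 in 6 of 6 libraries by 0.57 (exact permutation, adjusted p 0.0469). In KI alone Cd28 was the higher in 3 of 6, with a mean difference of -0.16 (exact permutation, adjusted p 0.71). No pair could pass in KI, because too few pairs had one sign in all 6 libraries. Whether this order differs between genotypes was not tested. Tnfrsf18 exceeded Tnfrsf4 in 10 of 12 libraries by 0.59 (exact permutation, adjusted p 0.0132). Tnfrsf4 exceeded Tnfrsf9 in 12 of 12 by 4.21 (exact permutation, adjusted p 0.00146), and Tnfrsf9 exceeded Cd226 in 11 of 12 by 3.06 (exact permutation, adjusted p 0.00195).

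**Figure D1:**
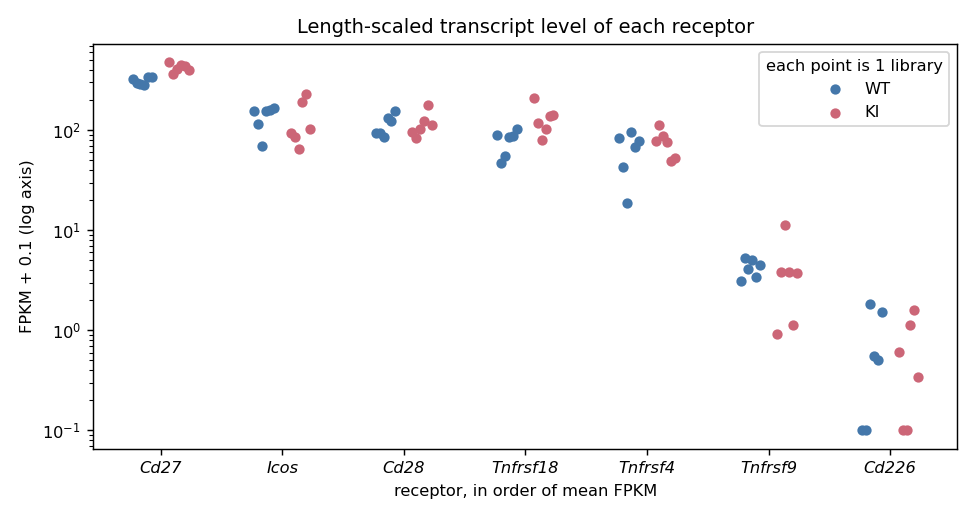
Level of each receptor transcript in FPKM + 0.1 (log axis), 1 point per library, WT in blue and KI in red, in order of the mean over 12 libraries. Cd27 lies above the other 6 in every library, Icos, Cd28 and Tnfrsf18 share one range, and Tnfrsf9 and Cd226 lie lowest.

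No member passed the test between genotypes. Of the 6 members tested, 0 had an adjusted p under 0.05 (edgeR quasi-likelihood test, Benjamini-Hochberg over 7542 genes), where 2 of 7542 genes, or 0.0265%, were called. DESeq2 called 0 of the 6 as well. At an unadjusted p under 0.05 there were 2 members, Tnfrsf18 and Cd27, both at higher values in KI, beside 407 of 7542 genes, or 5.40%, in either direction. With a replicate block by first number 0 members were called, and 4 genes, or 0.0530%, were called in all. The median log2 difference was 0.14 over the 6 members and 0.02 over all tested genes.

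Among the immunoglobulin-family receptors, the Cd28 values of the genotypes were nearly the same. Cd28 had a lowest, median and highest value of 534, 684 and 884 CPM in WT and of 490, 641 and 935 CPM in KI. The KI range covered the whole WT range. The log2 difference was -0.002 (SE 0.20, 95% interval -0.42 to 0.41; edgeR, adjusted p 1), so this interval reaches a fold of 0.75 in one direction and 1.33 in the other. Icos, in the same family, had a lowest, median and highest value of 412, 660 and 702 CPM in WT and of 284, 432 and 1066 CPM in KI. KI values spread on both sides of the WT values, with an SD of 322 CPM in KI and 108 CPM in WT. The log2 difference was -0.08 (SE 0.28, 95% interval -0.67 to 0.50; edgeR, adjusted p 0.978).

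Among the TNF receptor family, Tnfrsf18, which encodes the costimulatory receptor GITR, had the largest measured difference of the 6. Its lowest, median and highest values were 67.2, 110 and 129 CPM in WT and 105, 168 and 242 CPM in KI. KI 1-3, at 105 CPM, was the only KI library within the WT range, and the other 5 lay above all WT libraries. The fold was 1.64 (log2 0.72, SE 0.23, 95% interval 0.24 to 1.19), with an unadjusted p of 0.00512 and an adjusted p of 0.914 (edgeR), so it did not pass. With a replicate block by first number the adjusted p was 0.277, and over 26 alternative settings it ran from 0.277 to 0.996. The log2 difference stayed between 0.57 and 0.88 over those settings.

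Cd27, the receptor for CD70, had lowest, median and highest values of 490, 594 and 737 CPM in WT and of 699, 738 and 1010 CPM in KI. WT 1-3, at 737 CPM, was the only WT library within the KI range. The fold was 1.30 (log2 0.38, SE 0.17, 95% interval 0.03 to 0.73), with an unadjusted p of 0.0343 and an adjusted p of 0.917 (edgeR). Without KI 2-1, the library at 1010 CPM, the log2 difference was 0.29 with an unadjusted p of 0.102. The separation of the genotypes depended on the scaling. In FPKM, Cd27 ran from 281 to 343 in WT and from 362 to 476 in KI, so the genotypes did not overlap. With CPM scaled by library totals alone, it ran from 506 to 627 in WT and from 656 to 866 in KI, again with no overlap. Over all 12 libraries 18 of 8775 genes, or 0.205%, were free of overlap in FPKM, and 28 of 7542, or 0.371%, in CPM. No other member was free of overlap in FPKM, and none was in CPM. The test on log2(FPKM + 1) gave Cd27 a log2 difference of 0.43 (limma, adjusted p 0.935). With library totals alone the value was also 0.43 (edgeR, adjusted p 0.947).

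Tnfrsf4, the receptor for OX40 ligand, had lowest, median and highest values of 41.2, 112 and 147 CPM in WT and of 68.7, 122 and 190 CPM in KI. The genotypes overlapped, with a log2 difference of 0.28 (SE 0.30, 95% interval -0.35 to 0.91; edgeR, adjusted p 0.948). Tnfrsf9 was measured with 3 to 43 counts per library and had the widest interval. It ranged from 7.67 to 15.3 CPM in WT and from 1.91 to 29.5 CPM in KI, so KI held both the lowest and the highest library. Its log2 difference was -0.06 (SE 0.60, 95% interval -1.31 to 1.19; edgeR, adjusted p 0.995), and a change of 2-fold either way lies within this interval. Cd226 had 0, 0, 4, 2, 2 and 6 counts in WT and 2, 0, 0, 3, 9 and 1 in KI. Its WT level was 2.35 ± 2.89 CPM (SD, n = 6), and its KI level was 1.68 ± 1.92 CPM (SD, n = 6). The difference of -0.19 on the log2(CPM + 1) scale gave an exact permutation p of 0.758, where 0.00216 is the smallest p that the splits of 12 libraries allow. No genotype difference in Cd226 was detected.

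**Figure D2:**
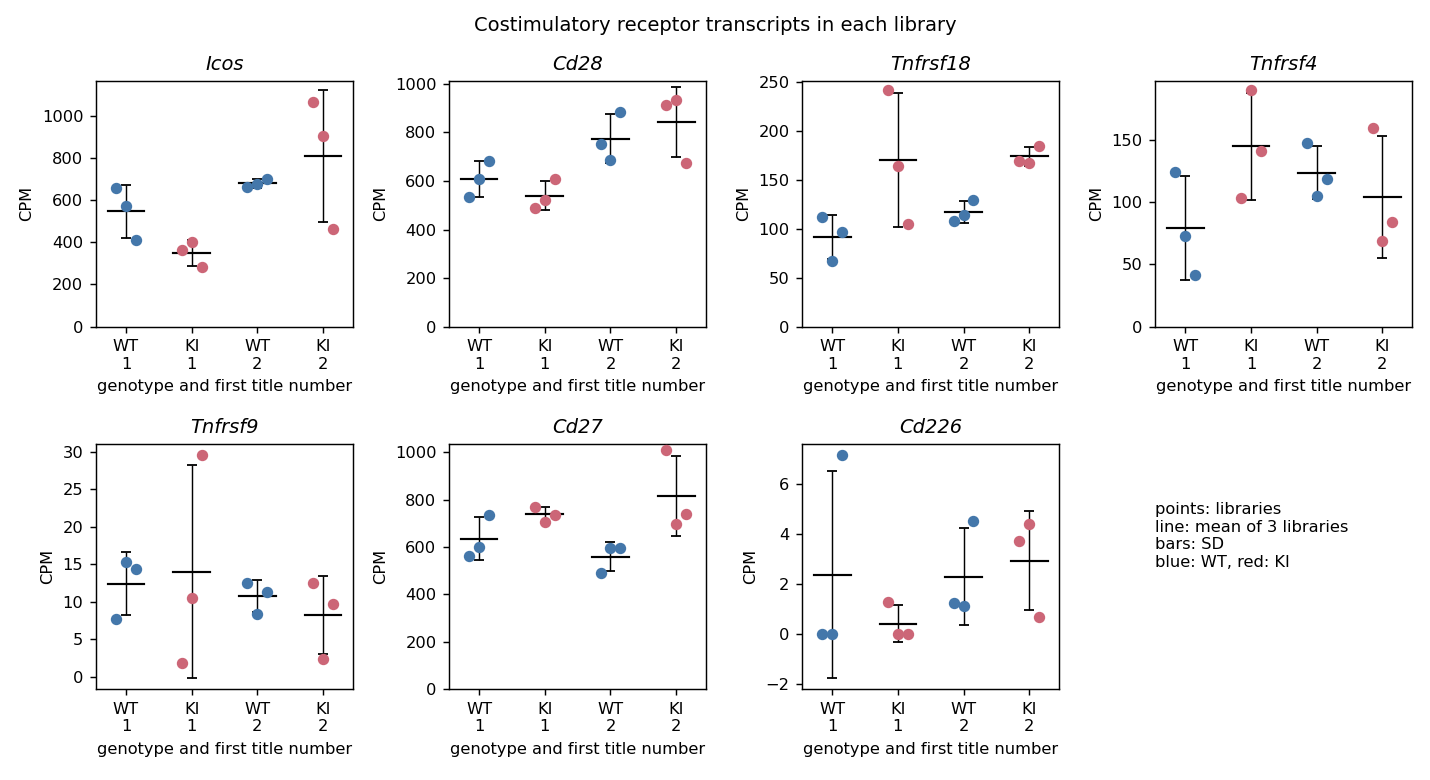
CPM of each receptor transcript in the 12 libraries, grouped by genotype (WT blue, KI red) and first title number; the horizontal line is the mean of 3 libraries and the bars are the SD. Icos is lowest in the KI libraries with first number 1 and reaches 1066 CPM in a KI library with first number 2, and Tnfrsf18 is at 105 to 242 CPM in KI against 67.2 to 129 CPM in WT.

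The Treg list (Foxp3, Il2ra, Ikzf2, Gpr83) was checked because regulatory T cells are rich in Tnfrsf18 and Tnfrsf4. Its summed level ran from 38.9 to 160 CPM in WT and from 27.3 to 121 CPM in KI, and 0 of the 1 tested gene, Ikzf2, was called between genotypes. Ikzf2 carried most of the sum, with a mean of 77.6 CPM over the 12 libraries. The means were 0.19 CPM for Foxp3, 1.04 for Il2ra and 5.6 for Gpr83. Foxp3 was at 0 in 11 of 12 libraries, with at most 4 counts. Of the B cell list, 8 of 9 genes had a row, with sums of 138 to 309 CPM in WT and 113 to 224 CPM in KI. Pax5 was at 0 in 12 and Ebf1 in 11 libraries. Of its 5 tested genes 0 were called, and 3 (Ms4a1, Cd79a and Cd79b) had lower values in KI at an unadjusted p under 0.05. Means of these 3 were 30.8, 25.9 and 46.7 CPM in WT and 7.46, 10.6 and 18.3 CPM in KI. Differences were negative for 4 of the 5 and positive for 1, Cd22. Cd22 was the most abundant of the list, with means of 99.1 CPM in WT and 147 CPM in KI, so the sums follow it most. The myeloid list summed to 1.26 to 213 CPM in WT (median 8.66), where the 213 was WT 1-3 and the next library was at 11.9. In KI it summed to 1.24 to 46.4 CPM (median 17.4), and none of its 6 genes was tested. The part of these cells in the genotype values was not tested.

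The first title number moved with 2 of the 6 tested members, and both encode receptors that bind B7-family ligands. Icos and Cd28 were higher in libraries with first number 2, by 1.69-fold and 1.41-fold, in a fit with genotype as a term. In that comparison 1208 of 7542 genes, or 16.0%, were called, of which 639, or 8.47% of those tested, were higher at first number 2. Among genes with a mean of at least 50 counts, 2 of 5 members were called beside 1038 of 3782 genes, of which 564 were higher. The median difference was 0.12 over the members and 0.01 over all tested genes. Of the called genes 639 of 1208 were higher under the TMM scaling of counts, but 499 of 747 were higher in FPKM and 717 of 1071 with library totals alone.

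Icos was measured at 659, 573 and 412 CPM in WT and at 365, 404 and 284 CPM in KI with first number 1. With first number 2 it was measured at 661, 677 and 702 CPM in WT and at 1066, 903 and 461 CPM in KI. The highest 5 values all belonged to first number 2, and KI 2-3 at 461 CPM was the only library of that number below some of the others. The log2 difference was 0.76 (SE 0.21, 95% interval 0.33 to 1.19; edgeR, adjusted p 0.0158). Within KI libraries alone it was 1.27 (SE 0.26, adjusted p 0.00143), and within WT libraries alone 0.33 (SE 0.20, adjusted p 0.317). Without KI 1-3 the difference was 0.64 and missed the threshold (adjusted p 0.058).

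Cd28 was measured at 534, 609 and 682 CPM in WT and at 490, 522 and 607 CPM in KI with first number 1. With first number 2 it was measured at 754, 686 and 884 CPM in WT and at 915, 935 and 675 CPM in KI. The numbers met only at WT 1-3 (682 CPM), which lay just above KI 2-3 (675 CPM). The log2 difference was 0.50 (SE 0.15, 95% interval 0.19 to 0.80; edgeR, adjusted p 0.0237). It was 0.71 in KI alone (SE 0.22, adjusted p 0.0367) and 0.37 in WT alone (SE 0.19, adjusted p 0.229). This call was near the threshold, and leaving out WT 1-1, WT 2-3, KI 1-2 or KI 2-2 gave adjusted p-values of 0.0522, 0.0568, 0.0633 and 0.0599. In FPKM neither call held: limma on log2(FPKM + 1) gave Icos 0.80 (adjusted p 0.0824) and Cd28 0.56 (adjusted p 0.102).

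Scaling moved the median of all genes in this contrast to 0.11 with library totals alone and to 0.12 on log2(FPKM + 0.1). Relative to that median Icos stood at 0.73 and 0.69, and Cd28 at 0.50 and 0.45. Both receptors therefore kept their direction under each scaling.

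The 4 TNF receptor family members tested did not pass between first numbers. Tnfrsf4 differed by 0.05 (SE 0.29, 95% interval -0.54 to 0.65; adjusted p 0.927). Tnfrsf18 differed by 0.18 (SE 0.21, 95% interval -0.24 to 0.61; adjusted p 0.59). Cd27 had means of 686 CPM at first number 1 and 688 CPM at first number 2, a log2 difference of -0.02 (SE 0.15, 95% interval -0.32 to 0.29; adjusted p 0.953). Tnfrsf9 differed by -0.50 (SE 0.60, 95% interval -1.75 to 0.75; adjusted p 0.618). The 4 libraries with 0 counts of Cd226 all had first number 1, and its difference of 0.99 on the log2(CPM + 1) scale had an exact permutation p of 0.121.

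**Figure D3:**
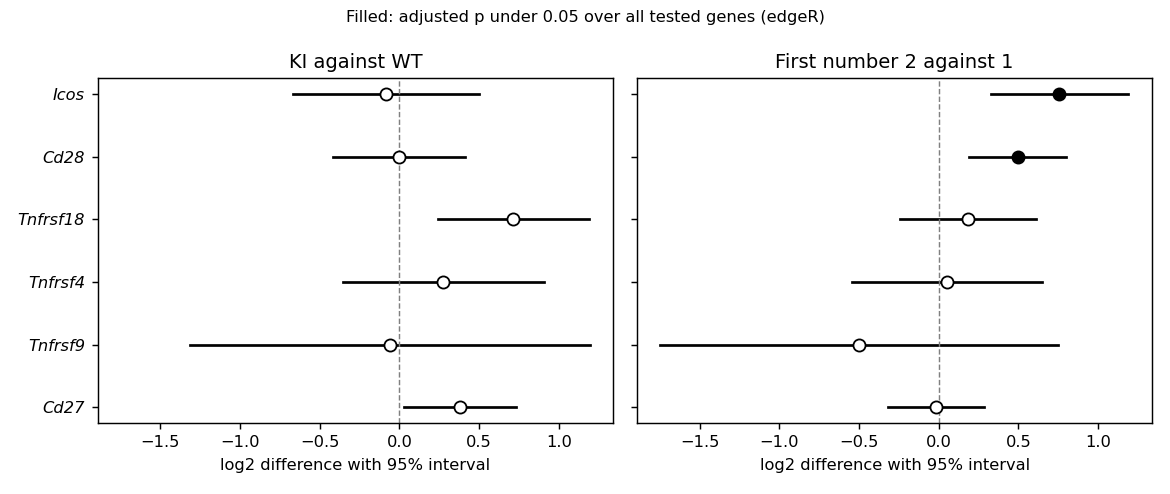
Log2 difference of the 6 tested receptor transcripts between genotypes (left) and between first title numbers (right), with bars for the unadjusted 95% interval; filled points have an adjusted p under 0.05. Only Icos (0.76) and Cd28 (0.50) are filled, both on the right, while Tnfrsf18 (0.72) and Cd27 (0.38) lie highest on the left without passing.

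Markers of other cell types also moved with the first number. The summed CD8 and NK cell list (7 genes) ran from 47.2 to 190 CPM at first number 1 and from 219.5 to 466 CPM at first number 2, and all 3 of its tested genes, Cd8b1, Klrb1c and Nkg7, were called higher at first number 2. Nkg7 carried most of the sum, with means of 78.8 and 328 CPM at first numbers 1 and 2. Ncr1 was at 0 in 12 libraries, Gzma in 11, Klrd1 in 9 and Cd8a in 5, and these genes were below the filter. The T cell and Tfh identity list summed to 4644 to 5228 CPM at first number 1 and 3228 to 4535 CPM at first number 2. Cd247, which encodes a chain of the T cell receptor complex, and Cxcr5 were called lower at first number 2. Ikzf2, which carried most of the Treg list, was called higher, and that list summed to 27.3 to 138 and 63.7 to 160 CPM at first numbers 1 and 2. In KI the myeloid list summed to 1.24 to 6.18 CPM at first number 1 and to 28.7 to 46.4 CPM at first number 2, without overlap. In WT it summed to 8.26 to 213 CPM and 1.26 to 9.06 CPM, with overlap, and none of its genes was tested. The B cell list summed to 113 to 223 CPM and 174 to 309 CPM at first numbers 1 and 2, and its 5 tested genes all had positive differences, of which 0 were called. The part of these differences in the Icos and Cd28 values was not tested.

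Whether the genotype difference itself differed between first numbers was tested with an interaction term. For 0 of 6 members, and for 0 of 7542 genes, did this pass (edgeR). DESeq2 called 7 genes and 0 members. At an unadjusted p under 0.05 there were 2 members, Icos and Tnfrsf4, and 544 genes, or 7.21%. Icos in KI was lower than in WT at first number 1 (log2 -0.65, SE 0.23, adjusted p 0.338). There all 3 KI values lay below all 3 WT values in CPM, and 15.6% of all tested genes were free of overlap in either direction. The nearest were KI 1-2 at 404 CPM and WT 1-3 at 412 CPM. In FPKM the genotypes overlapped, as WT 1-3 (68.7) lay below KI 1-1 (94.5). At first number 2 the log2 difference of Icos between genotypes was 0.25 (SE 0.27, adjusted p 0.971). The interaction was 0.90 (SE 0.36, 95% interval 0.15 to 1.65, unadjusted p 0.0214, adjusted p 0.595).

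Tnfrsf4 gave values in the opposite order. It was measured at 124, 73.1 and 41.2 CPM in WT and at 104, 190 and 141 CPM in KI with first number 1. With first number 2 it was at 147, 105 and 119 CPM in WT and at 160, 68.7 and 83.8 CPM in KI. The genotype difference was 0.82 (SE 0.38, adjusted p 0.522) at first number 1 and -0.27 (SE 0.32, adjusted p 0.971) at first number 2. The interaction was -1.10 (SE 0.52, 95% interval -2.18 to -0.02, unadjusted p 0.0465, adjusted p 0.68). In this contrast the median of all genes moved to -0.21 with library totals alone and to -0.33 on log2(FPKM + 0.1). The fitted interaction of Icos was 0.68 (unadjusted p 0.0819) and 0.45 (unadjusted p 0.44) in these fits, so its unadjusted p was no longer under 0.05, and that of Tnfrsf4 was -1.29 (unadjusted p 0.0242) and -1.63 (unadjusted p 0.0388). Relative to the median, the interaction of Icos was 0.89 and 0.78 and that of Tnfrsf4 was -1.08 and -1.30. Without WT 1-3 the interaction of Icos was 1.05 (adjusted p 0.674) and that of Tnfrsf4 was -0.82 (unadjusted p 0.111, adjusted p 0.828).

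Tnfrsf18 and Cd27 had the same direction at both first numbers. At first number 1 Tnfrsf18 measured 112, 67.2 and 96.6 CPM in WT and 242, 164 and 105 CPM in KI, a difference of 0.88 (SE 0.34, adjusted p 0.389). At first number 2 it measured 108, 114 and 129 CPM in WT and 170, 167 and 185 CPM in KI, a difference of 0.57 (SE 0.25, adjusted p 0.913), and the genotypes did not overlap. Cd27 differed by 0.21 (SE 0.20, adjusted p 0.792) at first number 1. At first number 2 it measured 490, 594 and 595 CPM in WT and 1010, 699 and 739 CPM in KI, again without overlap (0.55, SE 0.23, adjusted p 0.913). Among all tested genes 15.6% were free of overlap between genotypes within first number 1 and 11.4% within first number 2. The interactions of Tnfrsf18 (-0.31), Cd27 (0.32) and Cd28 (0.29) had adjusted p-values of 0.934, 0.878 and 0.892.

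Members were next compared with each other across the 12 libraries, in log2 CPM, over 15 pairs. By Pearson's r, 0 of 15 pairs had an adjusted p under 0.05 and 2 had an unadjusted p under 0.05. The first was Icos with Cd28, at r 0.728 (permutation p 0.00838, adjusted 0.126) and Spearman's rho 0.853 (permutation p 0.00087, adjusted 0.013). Without the 2 libraries farthest from the median of Icos r was 0.719. Within first number 1 r was -0.07 (permutation p 0.89, 6 libraries) and rho 0.314 (permutation p 0.564). Within first number 2 r was 0.829 (permutation p 0.0222, adjusted 0.222, 6 libraries) and rho 0.886 (permutation p 0.0333). The pooled value is over libraries that differ by first number in both genes, and r and rho differ in sign within first number 1. The difference between the r values of the first numbers was not tested. In log2(FPKM + 1) over the 12 libraries, Icos with Cd28 had r 0.764 (permutation p 0.0041, adjusted 0.0307).

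**Figure D4:**
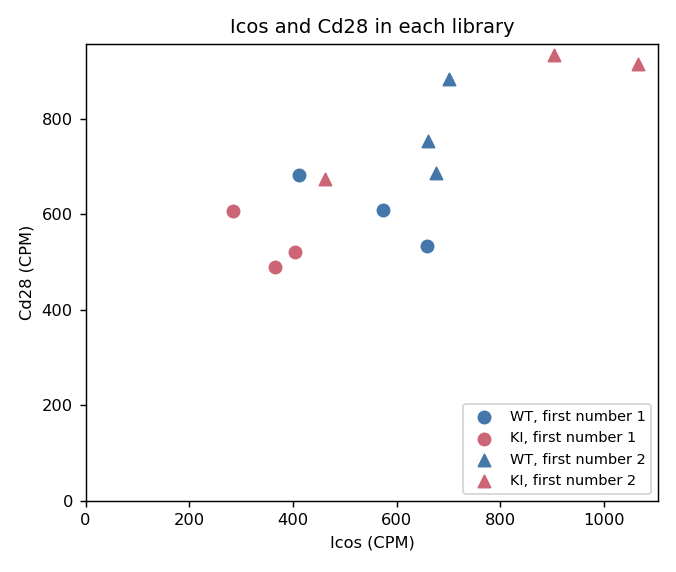
Cd28 against Icos in CPM, 1 point per library, WT blue and KI red, circles for first number 1 and triangles for first number 2. Triangles lie above and to the right of most circles, and the circles alone have r -0.07 and rho 0.314.

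The other pair was Tnfrsf9 with Tnfrsf18, at r -0.653 (permutation p 0.0217, adjusted 0.163) and rho -0.720 (permutation p 0.0108, adjusted 0.0809). Without the 2 libraries farthest from the median r was -0.366, so this value rests largely on those libraries, and Tnfrsf9 had as few as 3 counts. It was -0.754 within first number 1 and -0.325 within first number 2 (permutation p 0.0861 and 0.69). Tnfrsf4 and Tnfrsf18, the neighbours on chromosome 4, had r 0.253 (permutation p 0.427, adjusted 0.993) and rho 0.126 (permutation p 0.699, adjusted 0.977). Tnfrsf18 with Cd27 had r 0.522 in CPM (permutation p 0.0801, adjusted 0.4) and 0.768 in log2(FPKM + 1) (permutation p 0.0028, adjusted 0.0307). Both genes had higher measured values in KI, without a call, and r within each genotype was not computed. Signs were positive for 9 of 15 pairs over all libraries, 4 within first number 1 and 10 within first number 2.

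The tested genes most like each member were taken as the 3 with the highest Pearson r of log2 CPM over the 12 libraries, as a description. For Icos these were Tbce (0.943), Rsl1d1 (0.919) and Serinc1 (0.901). For Cd28 they were Sh3bgrl (0.925), Sacm1l (0.918) and Fam76b (0.907). All 6 of these genes were also called between first numbers, as were 16.0% of all tested genes. They were picked for likeness to Icos and Cd28, which were called in that contrast, so their calls are not separate evidence. For the TNF receptor family none of the genes was called between first numbers. Those of Tnfrsf18 were Ctnnb1 (0.860), Stradb (0.854) and Csrp1 (0.853), and those of Tnfrsf4 were Arpc3 (0.869), Sfrs14 (0.850) and 2310030N02Rik (0.831). Cd27 was nearest to 2610028A01Rik (0.906), Synrg (0.829) and Tmem19 (0.801), and Tnfrsf9 to Eif4a3 (0.819), Hcls1 (0.816) and Lemd2 (0.815).

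Genes around these receptors were counted in 6 lists with 66 genes, of which 47 were tested. Between genotypes 0 of the 47 passed. An unadjusted p under 0.05 was found for 3 of the 47, near the 5.40% of all tested genes, and the median log2 difference was -0.08 against 0.02 over all tested genes. DESeq2 called 1, Pdcd1, and so did the fit with a replicate block by first number. The lowest unadjusted p-values in the lower direction were those of Pdcd1 and of Slamf1, a self-ligand receptor (log2 -0.89, SE 0.42, adjusted p 0.917). In the higher direction they were those of Tnfrsf1b, which encodes TNF receptor 2 (0.83, SE 0.40, adjusted p 0.917), and of Cd6, a surface receptor that binds ALCAM (0.41, SE 0.22, adjusted p 0.919). The 3 genes with an unadjusted p under 0.05 were 1 coinhibitory receptor, 1 other costimulatory receptor and 1 gene of TNF receptor signalling. This last gene, named after its values were seen, was Tnfaip3, which encodes the NF-kappaB inhibitor A20 (-1.06, SE 0.50, adjusted p 0.917).

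Between first numbers 14 of the 47 passed, 9 higher and 5 lower at first number 2. This is 29.8% beside the 16.0% of all tested genes, and no set test was made. The share of all genes depended on count level. With a mean of at least 50 counts, 12 of 34 pathway genes were called beside 1038 of 3782 genes. In the list of CD28 and ICOS signalling, 2 of 15 tested genes were higher and 3 lower. Fyn, a kinase of the Src family, rose from a mean of 687 to 1068 CPM (log2 0.63, SE 0.14, adjusted p 0.00474). Pdpk1, which activates Akt, rose from 26.3 to 62.2 CPM (log2 1.24, adjusted p 0.00949). Those that fell included Pik3cd, the PI3K subunit p110-delta (-0.74, adjusted p 0.0207), and Grb2, an adaptor that binds CD28 (-0.75, adjusted p 0.0264).

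In TNF receptor signalling 3 of 12 tested genes were higher and 1 lower. Traf1, an adaptor of these receptors, fell from a mean of 287 to 122 CPM (log2 -1.22, SE 0.17, adjusted p 6.9e-05), and its ranges did not overlap, at 216 to 346 and 96.6 to 137 CPM. Of all tested genes 489, or 6.48%, were free of overlap between first numbers. Birc3, a ubiquitin ligase that binds TRAF proteins, rose from 17.1 to 54.2 CPM (log2 1.70, SE 0.37, adjusted p 0.00306). The other 2 that rose, Birc2 and Chuk, were outside the rule for named genes, and are given because their list's count is small (1.19, adjusted p 0.0479, and 1.41, adjusted p 0.0243).

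Of the coinhibitory receptors 3 of 7 tested genes passed. Btla, which binds the TNF receptor family member HVEM, rose from a mean of 126 to 278 CPM (log2 1.24, adjusted p 0.00223), and Pdcd1 fell (-1.56, SE 0.22, adjusted p 8.38e-05). Ctla4, named for its place between Cd28 and Icos, rose from 37.0 to 79.8 CPM (log2 1.08, SE 0.30, adjusted p 0.0177). Its range was 18.6 to 51.4 CPM at first number 1 and 43.3 to 118 CPM at first number 2, which overlap. All 3 genes of this locus thus passed in one direction in this contrast, as did 8.47% of all tested genes, and none of the 3 passed between genotypes. Among genes with a mean of at least 50 counts, 564 of 3782 passed in that direction. The calls of Icos and Cd28 did not hold in FPKM or in WT libraries alone.

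Among other costimulatory receptors 2 of 10 passed, a share near the 16.0% of all tested genes. These were Slamf6 and Cd84, self-ligand receptors of the SLAM family, while Slamf1 of that family did not pass (0.43, adjusted p 0.492) and Ly9 was below the filter. Slamf6 rose from a mean of 480 to 875 CPM (log2 0.87, SE 0.16, adjusted p 0.00079) and Cd84 from 71.8 to 164 CPM (log2 1.16, SE 0.26, adjusted p 0.00429). The ranges of Slamf6, 382 to 657 and 695 to 1012 CPM, did not overlap, as for 6.48% of all tested genes. Of the ligands 1 of 9 was tested and 0 passed. Of the mRNA regulators, which include Rc3h1, whose product Roquin represses Icos mRNA, 2 of 3 were tested and 0 passed.

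**Figure D5:**
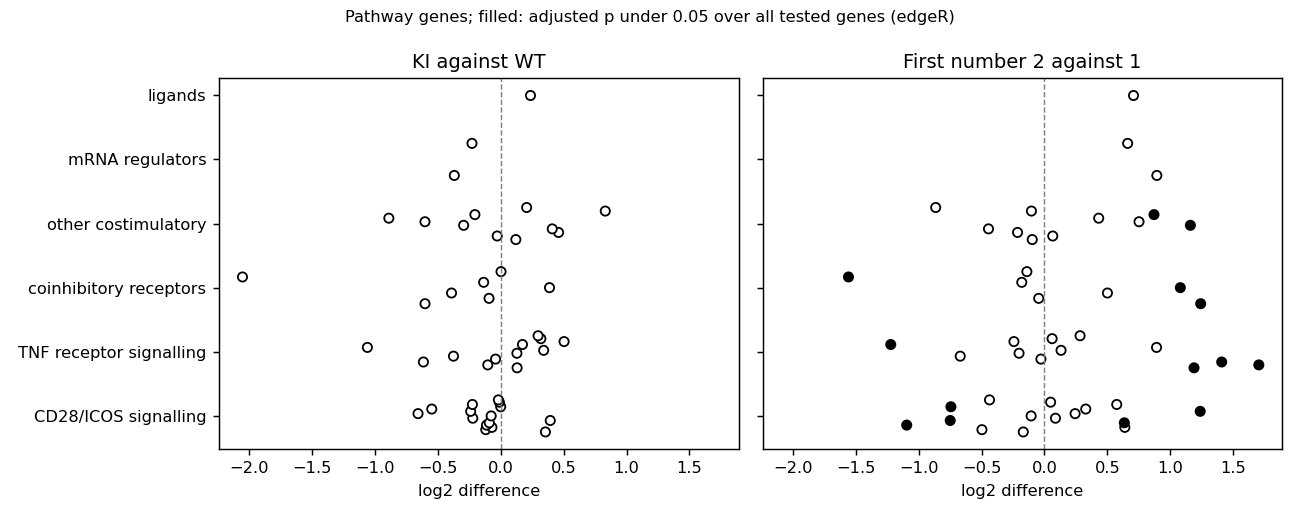
Log2 difference of the 47 tested pathway genes by list, between genotypes (left) and between first title numbers (right), 1 point per gene, filled where the adjusted p is under 0.05. On the left 0 points are filled, and on the right 14 are filled, 9 above and 5 below 0.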

How the data were processed

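Raw read counts per gene and FPKM values were used as deposited. The submitters' processing notes name CASAVA, TopHat2, Cufflinks, HTSeq and DESeq2 and the build mm9, without versions or roles. The count table has the summary entries that HTSeq writes, per the file headers, and the FPKM table deposited by the authors scales by length and depth. Annotation and strand use are not given in the sources used here. Entries that name no gene stayed out of library sizes, which left 46.1% to 60.2% of the reads per library in genes.

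Counts were tested in R 4.3.3 with edgeR 4.0.16 (filterByExpr, TMM, glmQLFit and glmQLFTest; Benjamini-Hochberg over 7542 genes; threshold 0.05). FPKM alternatives used limma 3.58.1 and DESeq2 1.42.0 was run on counts. CPM values are TMM-scaled. Amplified reads are not independent molecules. Fits were tested on simulated data. Cd226 and neighbouring levels were compared by exact permutation. Correlations over 12 libraries were tested by 100000 permutations, and those within a first number by all orders. Permutations were run with NumPy 2.4.6, and SciPy 1.17.1 gave r, rho and the adjustment.

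Members and gene lists were chosen with earlier results of these data known. Named genes are the members, Pdcd1, up to 6 called pathway genes per direction and contrast (the 2 with the smallest p where none was called between genotypes), and the 3 genes most correlated with each member. The values of 1 pathway gene are not reported here. Compared pairwise within a genotype (30 pairs), no libraries agreed within sampling noise (chi-square per degree of freedom 8.58 to 37.0). Alternatives were other scalings, filters, tools, blocks, single genotypes or first numbers, and each library left out. Scaling by library totals alone was added after the data were seen.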

Additional observations from a re-analysis of the deposited data

Results flagged for a closer look

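Among the KI libraries, Cd27 in KI 2-1 stood apart from the other 5. It measured 1010 CPM from 810 counts, and the next highest KI library measured 771 CPM. This gap was 0.769 of the whole range of the KI libraries, above Dixon's 95% critical value for 6 samples. In 14 sets of 6 libraries (7 members in each genotype) this was the 1 set with a library apart, and chance flags about 1 in 20. With CPM scaled by library totals alone, KI 2-1 measured 865 and KI 1-1 measured 866, so the gap was not present on that scale. Without KI 2-1 the log2 difference of Cd27 between genotypes was 0.29 (adjusted p 0.821) in place of 0.38.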

How the results depend on the processing

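No member was called between genotypes, and none had a called interaction, under any alternative that was run. The call of 1 pathway gene between genotypes, Pdcd1, appeared with DESeq2, with no filter, within first number 1 or 2 alone, and in the replicate block by first number or by both numbers, giving 1 in place of 0 each time. WT and KI libraries with both numbers alike correlated at 0.0828 to 0.258 in their deviations from the genotype means, and at -0.0049 on average once first-number means were removed, so the second number is not shown to pair them. The block by first number, whose pairing comes only from the titles, changed no member's call: Tnfrsf18 had an adjusted p of 0.277, Cd27 0.465 and Icos 0.825. Members called between first numbers were 2, but 1 with no filter, 0 in both FPKM tests, 0 in WT alone, and 1 to 2 with a library left out. The causes were not tested. Pathway genes called were 14, but 9 and 4 in FPKM (pseudocounts 1 and 0.1), 6 in WT alone and 8 in KI alone, where fewer libraries entered. Correlated pairs were 2 in FPKM in place of 0. Resolved neighbours in level were 4, but 0 in KI alone (4 in WT alone), where 6 libraries let a pair pass only if at least 4 of the 6 pairs have one sign in every library, as 2 had in KI, so this 0 says nothing of the order. The 4 in WT alone included Cd28 above Tnfrsf18, but not Tnfrsf18 above Tnfrsf4 (exact permutation, adjusted p 0.15), so they were not the same 4 pairs. The count was 4 to 5 with a library left out.

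Differences that were not called changed sign as follows. Between genotypes, Cd28 (-0.002) was 0.0227 with no filter, 0.0212 and 0.0214 in FPKM, 0.0359 with library totals alone and 0.121 at first number 2. At that number Icos was 0.252 and Tnfrsf4 -0.266, and at first number 1 Tnfrsf9 was 0.172. With a library left out, Icos ran from -0.351 to 0.0579, Cd28 from -0.107 to 0.0824, Tnfrsf9 from -0.656 to 0.168 and Cd226 from -0.455 to 0.157. Between first numbers, Cd27 (-0.02) was 0.00384 with upper-quartile scaling, 0.0354 with a mean of at least 50 counts, 0.0601 and 0.0602 in FPKM, 0.0828 with library totals alone, 0.00206 without genotype in the fit and 0.205 in KI alone. Tnfrsf4 (0.05) was -0.152 with limma-voom, -0.0664 with the quasi-likelihood method of edgeR version 4 and -0.43 in KI alone. With a library left out, Tnfrsf4 ran from -0.14 to 0.227, Tnfrsf9 from -0.714 to 0.0395 and Cd27 from -0.113 to 0.0549.

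Over all genes, 2 were called between genotypes, and 0 to 11 under the alternatives (11 with DESeq2). Between first numbers 1208 were called, against 747 and 549 in FPKM, 490 in WT alone, 558 in KI alone and 751 without KI 2-2. For the interaction 0 were called, against 140 with no filter, 24 without WT 1-1 and 7 with DESeq2. Depth limits Tnfrsf9, with as few as 3 counts, and Cd226, with at most 9.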
